A study of Danio rerio with 12 samples.

Results

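Meiotic recombination and synapsis genes encode the proteins that pair homologous chromosomes in primary spermatocytes and exchange DNA between them. They were taken as 31 symbols: structural proteins of the synaptonemal complex, meiotic cohesins, enzymes that make and repair the programmed DNA breaks, crossover factors and regulators of prophase. Gene IDs were matched by symbol, ignoring case, and 21 of the 31 members had counts among 33737 gene IDs. The other 10 members (sycp2l, syce1, syce2, syce3, stag3, spata22, meioc, tex15, brdt and hsf5) were not analysed here, so none of the prophase regulators and only sycp1 of the central region of the complex were measured. Of the 21 members with counts, 20 passed the filter on low counts and were tested.

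The measurements are RNA sequencing counts from adult wild-type zebrafish testis tissue kept in incubation for 48 h. In 6 libraries the incubation held trilostane and Fsh (labelled Trilostane+Fsh, called Fsh libraries), and in 6 libraries trilostane alone (labelled Trilostane, called control libraries). Trilostane, an inhibitor of steroid hormone synthesis, was thus present in both groups, and the labels give neither the Fsh dose nor the preparation of the tissue. The submitters describe the 6 libraries of each group as biological replicates. At issue is the response of testis genes to Fsh, the pituitary follicle-stimulating hormone, when steroid production is inhibited.

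In meiotic prophase the topoisomerase-like protein Spo11 cuts DNA, the recombinase Dmc1 carries the broken end into the homologous chromosome, and the synaptonemal complex zips the homologs together along protein axes that cohesins organise. The MutS pair Msh4 and Msh5 and the ring-finger proteins of the Rnf212 family then act on the joined molecules, and Mlh3 takes part in turning some of them into crossovers. In zebrafish spermatocytes pairing starts near the chromosome ends, and Spo11 is needed for synapsis. The germ cells that do this sit inside cysts of Sertoli cells, which carry the Fsh receptor, as Leydig cells also do in zebrafish.

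Library totals ran from 6735718 to 11367899 counts in the Fsh group and from 4695095 to 11497588 counts in the control group. Levels are given as counts-per-million (CPM), scaled by TMM, a correction for differences in library composition. The limit set by a count of 0, taken as 3 counts, is 0.259 to 0.641 CPM across the libraries and covers counting error only. Germ cell genes were abundant in both groups, with ddx4, the germ line helicase vasa, at a mean of 476 CPM in Fsh libraries and 438 CPM in control libraries. Fsh library 5 stood apart. Summed over a list of 28 leukocyte gene IDs it had 721 CPM. The other 5 Fsh libraries had 213 to 358 CPM and the 6 control libraries 318 to 699 CPM. Calls among the members that changed without Fsh library 5 are given with and without it. Many correlations are given only with it included.

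No meiotic gene passed the test. Of 20 members tested, 0 were called with Fsh by edgeR's quasi-likelihood test at a Benjamini-Hochberg adjusted p under 0.05 over all 19317 genes, where 1.63% of all genes were called, 0.865% higher and 0.766% lower. At an unadjusted p under 0.05, 3 members were higher (all genes 8.8%) and 1 was lower (all genes 8.59%). Together they are 20% of the members, near the 17.4% of all genes tested. DESeq2 called 1 member, rnf212b, and 4.7% of all genes, while limma-voom called 0 members and 1.87% of all genes. The log2 fold change of the 20 members had a median of 0.12, with 16 above 0 and 4 below. Over all genes the median was 0.0017, with 9710 of 19317 above 0. Many members varied together over the libraries, so their signs are not independent. The mean log2 CPM of the members had an SD of 0.38 between libraries within groups. No member had groups that did not overlap, where 1.93% of all genes did.

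**Figure D1:**
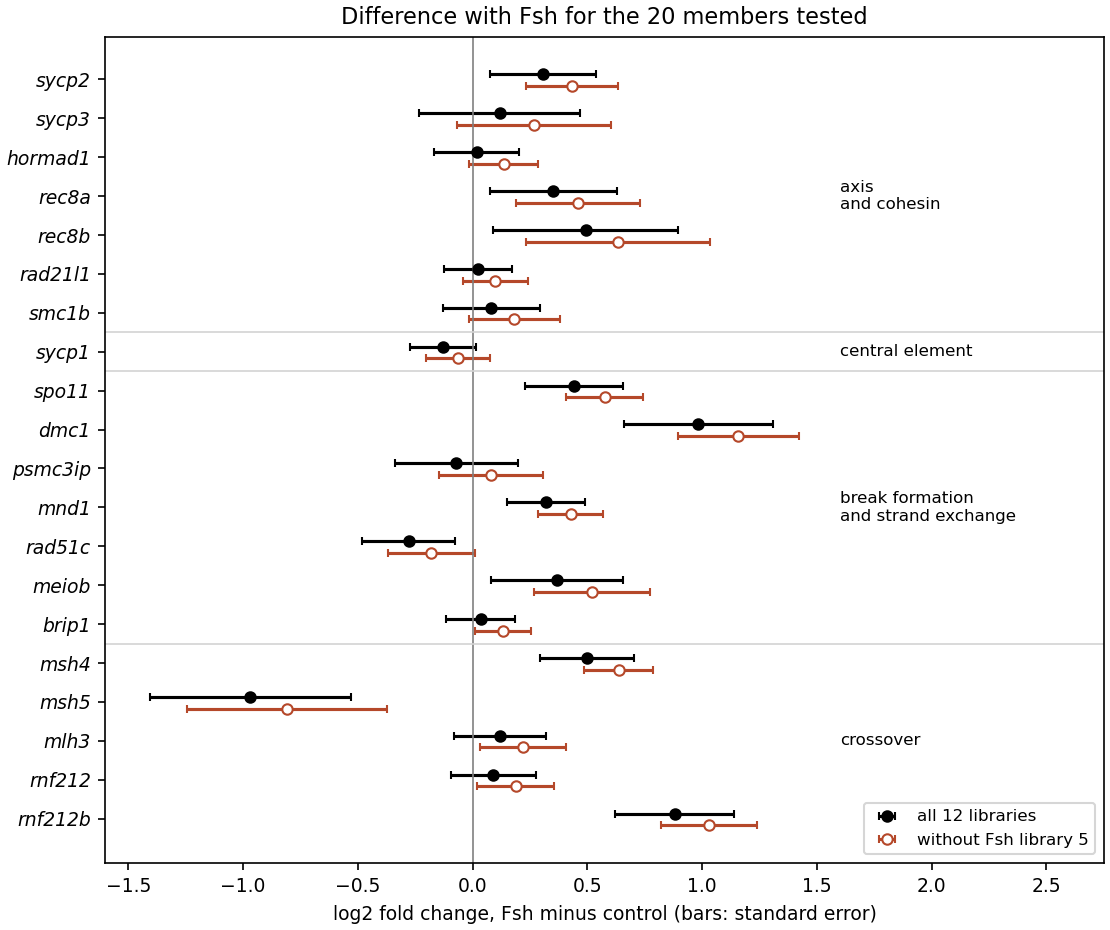
Log2 fold change, Fsh minus control, of the 20 members tested, ordered by role, with bars for the standard error. Filled points use all 12 libraries and open points leave out Fsh library 5; rnf212b and dmc1 lie farthest to the right and msh5 is the 1 member far to the left.

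Crossover genes held both the smallest p and the largest spread of responses. The gene rnf212b (ENSDARG00000093723) encodes a relative of Rnf212, a ring-finger protein that in mice stabilises recombination intermediates at future crossover sites. It had 14.6, 18.9, 14.1, 11.5, 6.59 and 21.4 CPM in Fsh libraries 1 to 6, and 7.05, 8.49, 4.60, 8.33, 8.11 and 10.5 CPM in control libraries 1 to 6. All Fsh libraries except number 5 lay above every control library. The mean was 14.5 ± 5.27 CPM in Fsh libraries and 7.85 ± 1.95 CPM in control libraries (SD, n = 6 each), a 1.84-fold difference that missed the threshold (log2 fold change 0.88 ± 0.26 SE; edgeR adjusted p = 0.101). When Fsh library 5 was left out, the log2 fold change was 1.03 ± 0.21 and the call was made (adjusted p = 0.0232).

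The gene msh4 (ENSDARG00000075826) encodes a MutS homolog that clamps recombination intermediates together with Msh5. It ranged from 29.2 to 79.3 CPM over the Fsh libraries, with a median of 62.1 CPM, and from 31.5 to 53.8 CPM over the control libraries, with a median of 40.6 CPM. In 4 Fsh libraries it lay above the highest control library, and Fsh library 5 lay below the lowest. The difference missed the threshold (0.50 ± 0.20, adjusted p = 0.226), and passed it when Fsh library 5 was left out (0.64 ± 0.15, adjusted p = 0.0392).

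Its partner msh5 (ENSDARG00000077479) went the other way. It had 48.7, 20.5, 56.0, 37.9, 14.8 and 31.0 CPM in Fsh libraries 1 to 6, and 60.3, 47.1, 63.7, 115, 111 and 12.6 CPM in control libraries 1 to 6. All 6 Fsh libraries lay below the control mean of 68.2 ± 39.0 CPM, yet control library 6 was the lowest of the 12. The log2 fold change of −0.97 ± 0.44 did not pass (adjusted p = 0.273). Its direction held under every alternative run. Over the omission of single libraries the edgeR adjusted p ran from 0.0715, without control library 6, to 0.47. Control library 6 held the lowest control value, so leaving it out widened the difference by construction. Control libraries 4 and 5 held the highest values.

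The other crossover genes differed little between the groups. The gene mlh3, whose product is part of a nuclease that resolves crossovers in mice, averaged 56.1 ± 14.4 CPM in Fsh libraries and 51.5 ± 14.7 CPM in control libraries (0.12 ± 0.20, adjusted p = 0.805). The paralog rnf212 averaged 9.995 ± 2.64 CPM in Fsh libraries and 9.35 ± 1.36 CPM in control libraries (0.09 ± 0.18, adjusted p = 0.849). Reads of tex11, an X-linked regulator of crossovers in mice, were too few to test. There were 12, 0, 1, 14, 0 and 0 reads in Fsh libraries 1 to 6 and 5, 0, 1, 1, 0 and 0 reads in control libraries 1 to 6.

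**Figure D2:**
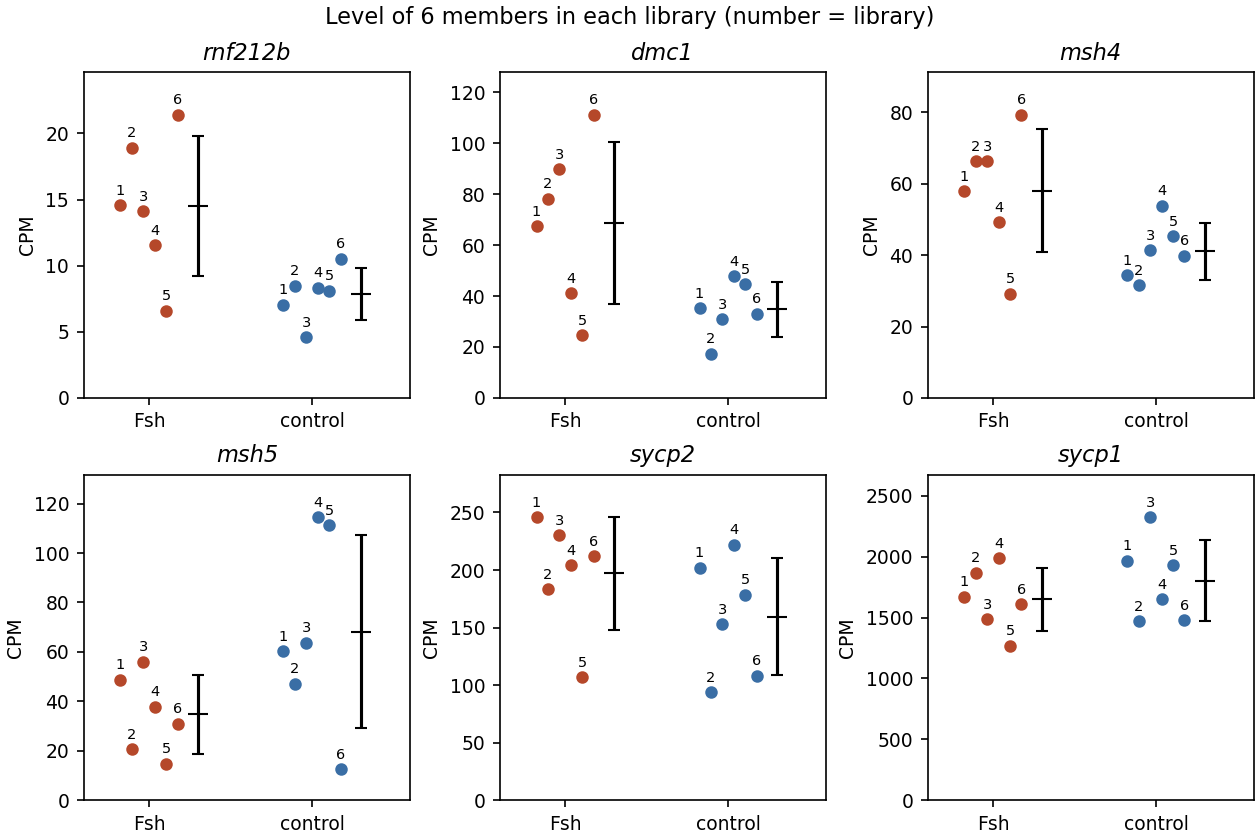
Level in CPM of 6 members in each library, Fsh left and control right, with the library number beside each point and the mean ± SD in black. In the panels of rnf212b, dmc1 and msh4 the lowest Fsh point is library 5, and in that of msh5 control libraries 4 and 5 stand at 115 and 111 CPM.

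Among the genes of break formation and strand exchange, dmc1 (ENSDARG00000055883), which encodes the meiosis-specific recombinase, had the largest difference of all members. It had 67.4, 78.2, 89.9, 41.1, 24.6 and 111 CPM in Fsh libraries 1 to 6, and 35.3, 17.3, 31.0, 47.7, 44.7 and 33.0 CPM in control libraries 1 to 6. Fsh libraries 1, 2, 3 and 6 lay above every control library, while Fsh libraries 4 and 5 lay within the control range. The mean was 68.7 ± 31.8 CPM in Fsh libraries and 34.8 ± 10.9 CPM in control libraries, a 1.98-fold difference that missed the threshold (0.98 ± 0.32, adjusted p = 0.136). When Fsh library 5 was left out, dmc1 was called (1.16 ± 0.26, adjusted p = 0.0345).

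The gene spo11, which encodes the enzyme that makes the breaks, ranged from 15.4 to 37.5 CPM in Fsh libraries and from 16.8 to 28.3 CPM in control libraries. In 4 Fsh libraries it lay above every control library (0.44 ± 0.21, adjusted p = 0.302, and 0.0765 without Fsh library 5). The genes mnd1 and psmc3ip encode the Hop2-Mnd1 pair that assists Dmc1, and neither passed. The level of mnd1 averaged 40.9 ± 9.16 CPM in Fsh libraries and 32.8 ± 6.28 CPM in control libraries (0.32 ± 0.17, adjusted p = 0.359). The level of psmc3ip averaged 13.4 ± 4.50 CPM in Fsh libraries and 14.1 ± 4.72 CPM in control libraries (−0.07 ± 0.27, adjusted p = 0.926). The single-strand DNA binding gene meiob had a log2 fold change of 0.37 ± 0.29, the helicase gene brip1 of 0.03 ± 0.15 and the recombination gene rad51c of −0.28 ± 0.20, with adjusted p values of 0.545, 0.934 and 0.513 in that order.

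Genes of the chromosome axis and its cohesins had log2 fold changes from 0.02 to 0.49, and none had an unadjusted p under 0.05. The smallest p in this role was that of sycp2 (ENSDARG00000088950), which encodes a scaffold of the axis. It ranged from 107 to 246 CPM in Fsh libraries, with a median of 208 CPM, and from 93.8 to 222 CPM in control libraries, with a median of 166 CPM. The groups overlapped over most of this range, and the difference of 0.31 ± 0.23 did not pass (adjusted p = 0.530). Its partner in the axis, sycp3, averaged 76.4 ± 31.2 CPM in Fsh libraries and 70.6 ± 35.5 CPM in control libraries (0.12 ± 0.35, adjusted p = 0.903).

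Zebrafish carry a pair of genes for the meiotic kleisin Rec8, the closing subunit of the cohesin ring. The copy rec8b averaged 39.4 ± 14.7 CPM in Fsh libraries and 28.1 ± 18.9 CPM in control libraries (0.49 ± 0.40, adjusted p = 0.566). The copy rec8a averaged 4.18 ± 0.988 CPM in Fsh libraries and 3.27 ± 1.29 CPM in control libraries (0.35 ± 0.28, adjusted p = 0.546). Neither copy differed beyond the spread between libraries. The other meiotic kleisin gene, rad21l1, differed by 0.02 ± 0.15 (adjusted p = 0.954), the cohesin ring gene smc1b by 0.08 ± 0.21 (adjusted p = 0.883), and hormad1, whose product marks unsynapsed axes, by 0.02 ± 0.18 (adjusted p = 0.973).

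The gene sycp1 (ENSDARG00000003904) encodes the transverse filament, the tooth of the synaptonemal zipper, and was 1 of 4 members that averaged lower with Fsh. It ranged from 1270 to 1988 CPM in Fsh libraries, with a median of 1640 CPM, and from 1470 to 2326 CPM in control libraries, with a median of 1789 CPM. The groups overlapped and the log2 fold change of −0.13 ± 0.15 did not pass (adjusted p = 0.694). Across all alternatives run it stayed between −0.24 and −0.04.

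Many members shared the same high and low libraries, and in the Fsh group the shared low library was number 5. Fsh library 5 held the lowest Fsh value of all 20 members tested, and the lowest value of all 12 libraries for 10 of them. Control library 4 held the highest control value for 14 members. The mean log2 CPM of the 20 members was 5.82, 5.83, 5.97, 5.57, 4.89 and 6.00 in Fsh libraries 1 to 6, and 5.66, 5.16, 5.24, 5.95, 5.75 and 5.17 in control libraries 1 to 6. This mean was higher in control libraries 1, 4 and 5 than in control libraries 2, 3 and 6, but not every member followed it. The genes sycp1 and hormad1 had their highest value of all 12 libraries in control library 3, at 2326 and 436 CPM.

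**Figure D3:**
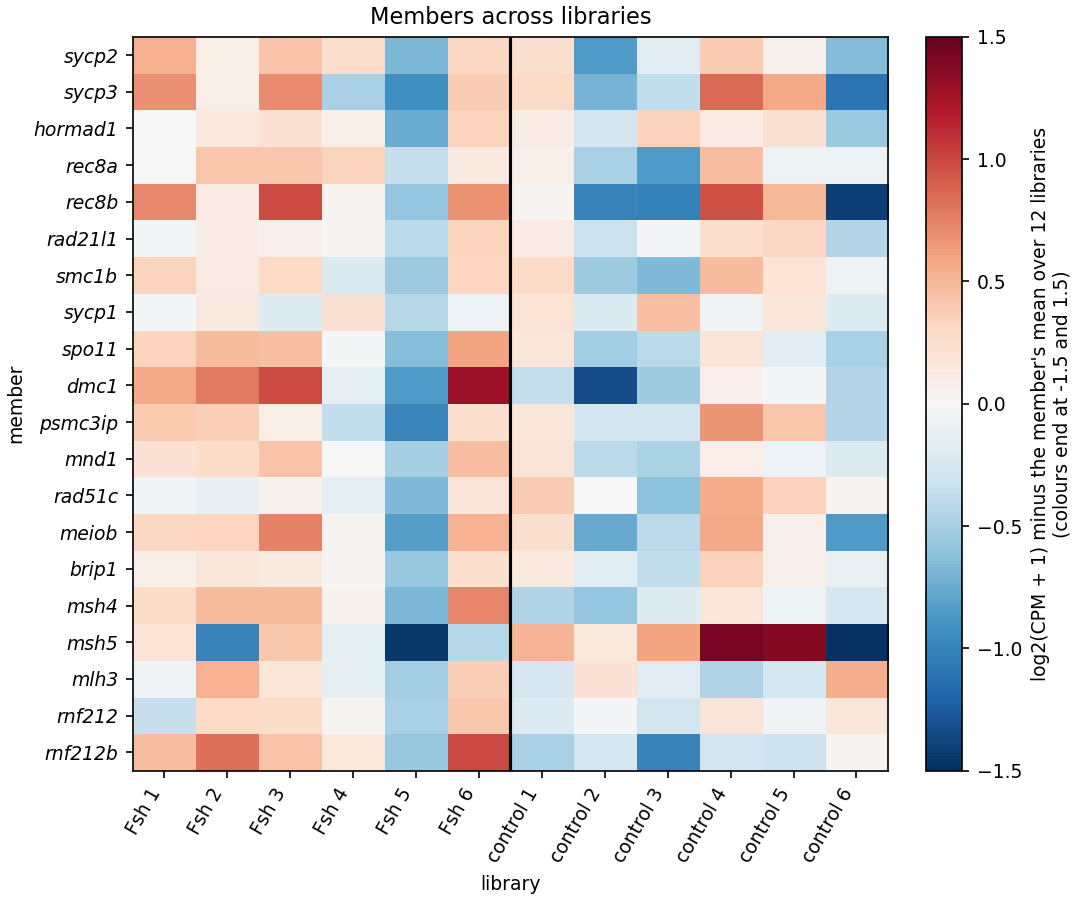
Level of each member in each library as log2(CPM + 1) minus the member's mean over the 12 libraries, Fsh libraries left of the line and control libraries right of it. The column of Fsh library 5 is low for most members and control library 4 is high for most, while dmc1 and rnf212b are high in Fsh libraries 1, 2, 3 and 6.

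The 2 libraries with the highest leukocyte sums, Fsh library 5 and control library 2, had the lowest means of the meiotic genes, 4.89 and 5.16. The other control libraries did not all follow this order. Control library 6 had a mean of 5.17 with the lowest control sum, 318 CPM, and control library 5 a mean of 5.75 with 531 CPM. The summed leukocyte level ran from 213 to 721 CPM over the Fsh libraries, with a median of 251 CPM, and from 318 to 699 CPM over the control libraries, with a median of 459 CPM (p = 0.186 by a two-sided exact permutation test, 0.335 adjusted over 9 measures of the libraries). Of 20 leukocyte genes tested, 16 had a log2 fold change below 0, where 9607 of 19317 genes did. The gene cd4-1 was the 1 called lower, where 0.766% of all genes were. At an unadjusted edgeR p under 0.05, 6 were lower, where 8.59% of all genes were. None of the 28 IDs was at 0 in either group. The pan-leukocyte gene ptprc stood at 98.0 CPM in Fsh library 5 and at 77.7 CPM in control library 2. What share of the members' differences goes with leukocyte content was not tested. When the leukocyte list's mean entered the fit as a covariate, the median log2 fold change of the 20 members was −0.12, with 6 above 0 and 14 below. No member was then called, where 1.09% of all genes were, and the log2 fold changes of rnf212b, dmc1 and msh4 were 0.52 ± 0.28, 0.38 ± 0.30 and 0.14 ± 0.19. The covariate itself went partly with the group. As mean log2 CPM it was 2.73 to 3.22 in the Fsh libraries other than number 5, and 3.23 to 4.36 in control libraries. This fit therefore cannot separate Fsh from leukocyte content. In bulk tissue, fewer cells of a type and less RNA per cell cannot be told apart.

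**Figure D4:**
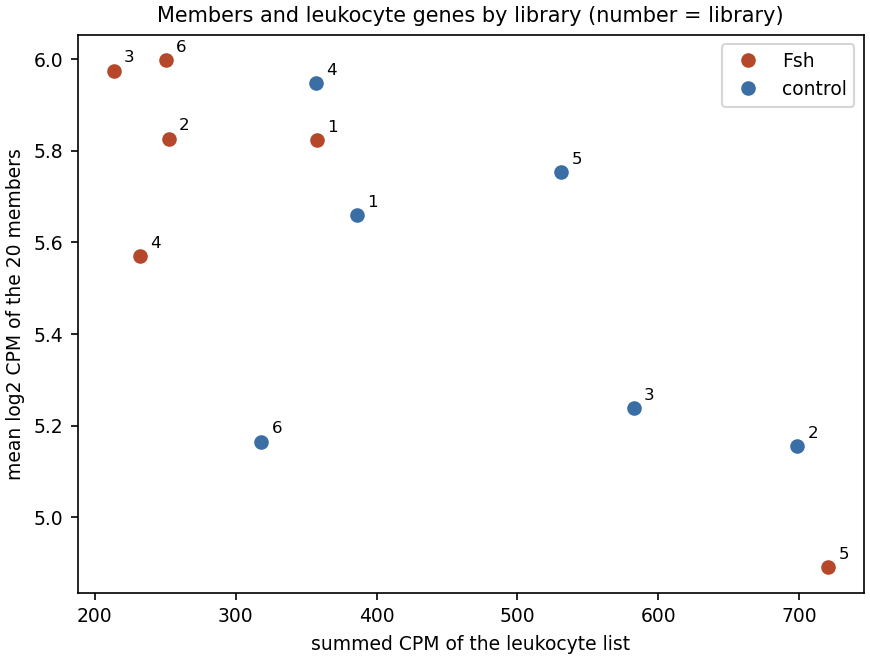
Mean log2 CPM of the 20 members against the summed CPM of the leukocyte list, 1 point per library with its number, Fsh and control in different colours. Fsh library 5 has the highest leukocyte sum, 721 CPM, and the lowest member mean, 4.89, while control library 6 has a low member mean, 5.17, with only 318 CPM of leukocyte genes.

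Some other lists differed between the groups in their summed CPM. These sums were tested with adjustment over 9 measures, while the members were tested gene by gene over 19317 genes. The members' sum was not tested, so the lists and the members cannot be compared by these p values. The summed fibroblast list averaged 4550 ± 1109 CPM in Fsh libraries and 2915 ± 745 CPM in control libraries (exact permutation test, adjusted p = 0.0455, n = 6 each). The Leydig cell list averaged 561 ± 150 CPM in Fsh libraries and 222 ± 94.3 CPM in control libraries (exact permutation test, adjusted p = 0.0390). Of its 10 genes tested, 7 had a log2 fold change above 0 and 3 below. The Sertoli cell list averaged 1729 ± 241 CPM in Fsh libraries and 1559 ± 134 CPM in control libraries, and did not pass (exact permutation test, adjusted p = 0.335). That sum does not speak for each gene. Gene by gene, 4 of 14 Sertoli genes tested were called higher, as were 2 of 10 Leydig and 4 of 11 fibroblast genes. Of all genes 0.865% were called higher, and none of these lists had a gene called lower. The erythrocyte list, most of it the carbonic anhydrase gene cahz, averaged 93.0 ± 14.5 CPM in Fsh libraries and 64.5 ± 12.4 CPM in control libraries (exact permutation test, adjusted p = 0.0390). Of its 4 genes tested, 2 had a log2 fold change above 0 and 2 below, so the sum does not speak for the list as a whole. The spermatogonia list averaged 3095 ± 367 CPM in Fsh libraries and 3039 ± 504 CPM in control libraries, and the spermatid list 3832 ± 597 CPM in Fsh libraries and 4188 ± 669 CPM in control libraries (exact permutation test, adjusted p = 0.823 and 0.459, n = 6 each). The spermatogonia list includes germ line genes such as ddx4, while nanos2 and gfra1a had no counts. Its sum is therefore not a level of spermatogonia alone. The part of these lists in the members' values was not tested.

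Leaving out Fsh library 5 changed which members were called. Then 3 of 20 members were called higher, rnf212b, dmc1 and msh4, and none lower, while the share of all genes called was 3.88%, and 1.62% for higher calls. Their folds were 2.04 for rnf212b, 2.23 for dmc1 and 1.55 for msh4. The median of the 20 members was 0.24, with 17 above 0, where 9801 of 19542 genes were above 0. Fsh library 5 held the lowest Fsh value of all 20 members, so leaving it out raised the Fsh mean of each by construction. The calls and the higher median are thus no independent support for a response. Without Fsh library 5 and control library 2 together, which have the highest leukocyte sums of their groups, rnf212b and dmc1 were called (adjusted p = 0.0384 and 0.0435), where 2.58% of all genes were. Leaving out any other single library gave no call among the members.

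Over the 12 libraries the members varied together. After each group's mean was removed, the 190 pairs of the 20 members had a median Pearson r of 0.70, and 50.0% of pairs had an r over 0.7. Over all pairs of the 19310 genes with a mean of at least 1 CPM, the median was −0.0035 and 2.26% of pairs had an r over 0.7. These values are descriptions, since all pairs share the same libraries, depths and tissue composition. The median was 0.85 within the Fsh libraries and 0.59 within the control libraries. No pair had an r below 0 within the Fsh libraries, and 38 of 190 did within the control libraries, the lowest at −0.948. Fsh library 5 held the lowest Fsh value of all 20 members, which can raise an r within the Fsh libraries. Without it, over the other libraries of both groups, the median was 0.53 and 39 of 190 pairs were below 0. No median was computed within the Fsh libraries without number 5. The values within groups therefore do not show closer co-variation with Fsh.

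**Figure D5:**
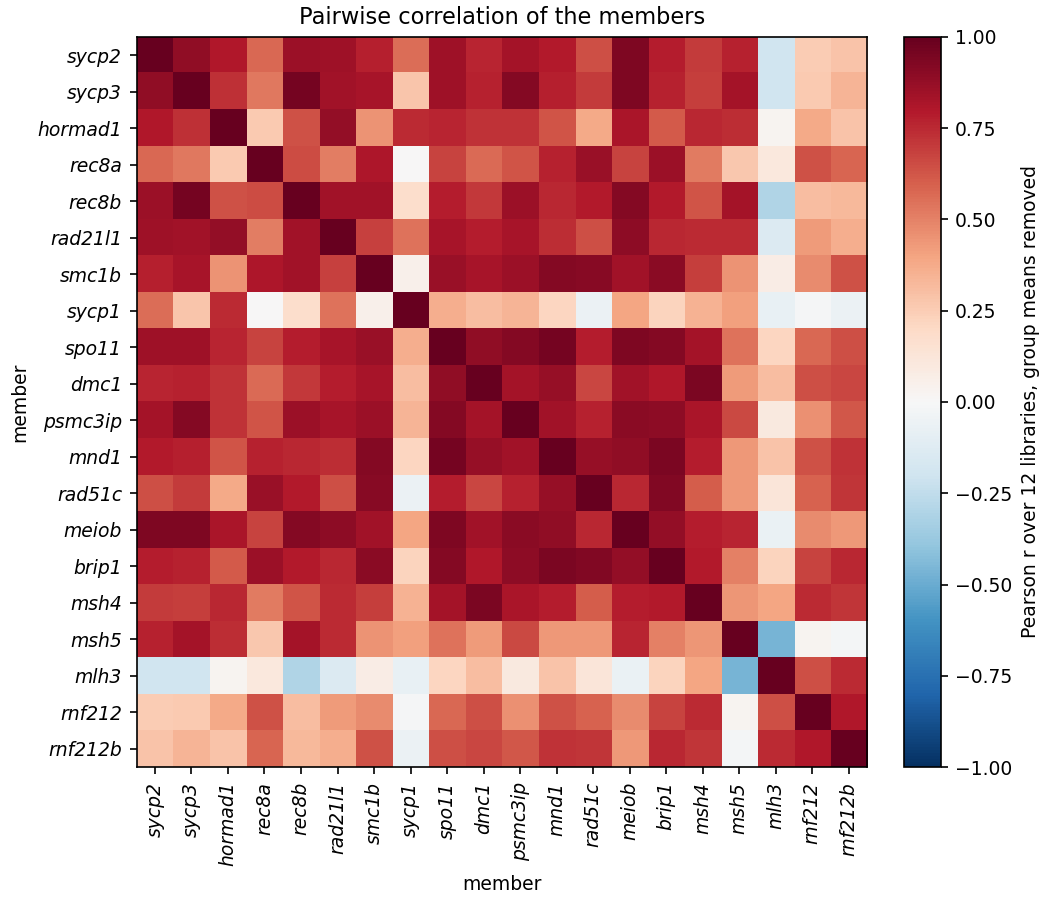
Pearson correlation of log2 CPM between each pair of the 20 members over 12 libraries, with group means removed and members ordered by role. Most of the square is positive, and mlh3 and sycp1 form pale bands; mlh3 and msh5 have the lowest value, −0.47.

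Most axis, cohesin and strand exchange genes followed the rest closely. The correlation of a member with the mean of the other members was highest for meiob (0.966), spo11 (0.950), psmc3ip (0.943) and brip1 (0.935), and lowest for mlh3 (0.046), sycp1 (0.318), rnf212 (0.550) and rnf212b (0.573). Without Fsh library 5 these 4 lowest were −0.540, −0.066, 0.207 and 0.155, and meiob stood at 0.951. The closest pairs were spo11 with mnd1 (0.961) and sycp3 with rec8b (0.960).

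The crossover genes mlh3, rnf212 and rnf212b followed the other members less closely than most, and were grouped here after their values were seen. The gene mlh3 correlated at 0.747 with rnf212b, at 0.643 with rnf212 and at −0.467 with msh5, and rnf212 at 0.803 with rnf212b. With members outside this group, rnf212b ran from −0.061 with sycp1 to 0.755 with brip1. There rnf212 ran from −0.016 with sycp1 to 0.743 with msh4. Outside the group mlh3 ran from −0.467 with msh5 to 0.395 with msh4. All these r include Fsh library 5. Whether these genes form a cluster apart from the other members was not tested. The control libraries show the contrast of mlh3 with msh5 in levels. In control library 6 mlh3 stood at 76.9 CPM, its highest control value, while msh5, rec8b and sycp3 stood at 12.6, 10.4 and 30.3 CPM, their lowest. In control library 4 mlh3 stood at 37.8 CPM, its lowest control value, while msh5, rec8b and sycp3 stood at 115, 57.8 and 121 CPM, their highest. The level of rnf212 did not follow mlh3 there, with its highest control value, 11.0 CPM, in control library 4.

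Correlations were tested for 6 pairs of known partners over the 12 libraries, without removing group means. Permutation tests with 100000 resamples were used, adjusted over the 6 pairs. They ask only whether a correlation differs from 0. Over all 190 pairs of members the median r, with group means kept, was 0.65, and 39.5% of pairs had an r over 0.7. A pass therefore does not set a pair of partners apart from other members. The genes spo11 and dmc1, which act in succession at a break, gave r = 0.911 (permutation p = 3e-05, adjusted p = 0.00018) and rho = 0.951 (permutation p = 1e-05, the smallest these resamples can give, adjusted p = 6e-05). The axis partners sycp2 and sycp3 gave r = 0.862 (permutation p = 0.00045, adjusted p = 0.00135) and rho = 0.825 (permutation p = 0.00162, adjusted p = 0.00486). Both relations held without the 2 libraries farthest from the median of the first gene, at r = 0.880 and 0.836 (permutation adjusted p = 0.00702 and 0.0133).

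The Hop2-Mnd1 genes psmc3ip and mnd1 gave r = 0.703 (permutation p = 0.0104, adjusted p = 0.0207) and rho = 0.552 (permutation p = 0.0666, adjusted p = 0.0800). The cohesin genes smc1b and rad21l1 gave r = 0.685 (permutation p = 0.0143, adjusted p = 0.0215) and rho = 0.587 (permutation p = 0.0486, adjusted p = 0.0730). The paralogs rnf212 and rnf212b gave r = 0.666 (permutation p = 0.0194, adjusted p = 0.0232) and rho = 0.685 (permutation p = 0.0167, adjusted p = 0.0334). Without the 2 farthest libraries, Fsh library 5 among them each time, these r were 0.552, 0.7004 and 0.506 and did not pass (permutation adjusted p = 0.147, 0.0537 and 0.163). The r of psmc3ip with mnd1 and of rnf212 with rnf212b was lower without those libraries, and that of smc1b with rad21l1 was not. Leaving out the farthest libraries narrows the range of the first gene and leaves fewer libraries. A lower r therefore does not show by itself that a relation rests on them. With group means removed and Fsh library 5 kept, all 3 passed, at r = 0.842, 0.684 and 0.803 (permutation adjusted p = 0.00168, 0.0184 and 0.00225). The median over all 190 pairs of members was then 0.70.

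The partners msh4 and msh5 gave r = 0.123 (permutation adjusted p = 0.70) and rho = 0.063 (permutation adjusted p = 0.853) over the 12 libraries, neither of which passed, and with group means removed r was 0.439 (permutation adjusted p = 0.154). Without the 2 farthest libraries r was −0.023 (permutation adjusted p = 0.948). Within the 6 Fsh libraries alone only spo11 and dmc1 passed (r = 0.980, exact permutation adjusted p = 0.0167). Fsh library 5 held the lowest Fsh value of both genes, and no r was computed within the Fsh libraries without it. Within the 6 control libraries no pair passed, the smallest adjusted p being 0.0542 (exact permutation test).

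The wider meiosis and homologous recombination list held 63 genes tested besides the members. None was called, while 10 had an unadjusted p under 0.05 by edgeR, 8 higher and 2 lower (15.9% of the list, where 17.4% of all genes did), and their median log2 fold change was 0.06. The smallest p was that of zswim7, whose product acts with the recombinases in mouse meiosis. It averaged 7.80 ± 1.40 CPM in Fsh libraries and 11.9 ± 2.49 CPM in control libraries, lower than the control mean in 6 of 6 Fsh libraries, and did not pass (−0.61 ± 0.17, adjusted p = 0.0870). The helicase gene mcm9 averaged 30.2 ± 5.56 CPM in Fsh libraries and 21.3 ± 3.49 CPM in control libraries (0.50 ± 0.15, adjusted p = 0.100), and was called without Fsh library 5 (adjusted p = 0.0360). The cohesin subunit gene stag1 (ENSDARG00000061205) differed by 0.28 ± 0.11 (edgeR adjusted p = 0.192). The other ID under that symbol (ENSDARG00000062137) differed by 0.39 ± 0.17 (edgeR adjusted p = 0.261). The Fanconi anaemia gene fanci differed by 0.38 ± 0.15 (adjusted p = 0.200), and was called without Fsh library 5 (adjusted p = 0.0434). In that fit mcm9 and fanci were the 2 of 63 genes called, where 3.88% of all genes were. DESeq2 called zswim7 and mcm9 (adjusted p = 0.0231 and 0.0449), where it called 4.7% of all genes. With the leukocyte covariate mei4, a gene of break formation in mice named after its values were seen, was called lower (−0.46 ± 0.09, adjusted p = 0.0370). Of all genes 1.09% were called in that fit, whose covariate went partly with the group.

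Of genes outside the 31 members, 8 were named for the closest match to the members' mean over the 12 libraries, with group means removed. Genes without a symbol or with a clone name were left out before this choice. These were RAD51B, lemd1, rad9b, MINDY3, MCM8, TRIP13, RBM46 and NDEL1, with r from 0.988 to 0.955. RAD51B encodes a protein of homologous recombination, rad9b a subunit of a DNA damage checkpoint clamp, MCM8 a recombination helicase, TRIP13 an ATPase that remodels Hormad proteins on synapsed axes, and RBM46 a germ cell RNA-binding protein. RAD51B, rad9b, MCM8 and TRIP13 are on the wider meiosis list, and lemd1, MINDY3, RBM46 and NDEL1 are not. None of the 8 passed between the groups. The smallest p was that of TRIP13, at 57.1 ± 14.7 CPM in Fsh libraries and 39.3 ± 12.0 CPM in control libraries (0.54 ± 0.21, edgeR adjusted p = 0.211).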

How the data were processed

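Total RNA of testis tissue was made into Illumina TruSeq libraries, per the labels' protocols. The submitters' processing notes name CASAVA 1.8, STAR 2.3, HTSeq and the genome build Zv9. They name no annotation release or strand setting, so reads of overlapping, antisense or near-identical genes are uncertain. The authors deposited whole-number counts per Ensembl gene ID, not normalized. No genome, sequence or annotation with positions was used, so coordinates are not given.

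Counts were tested with edgeR 4.0.16 in R 4.3.3 (glmQLFit, glmQLFTest, TMM, filterByExpr, no covariates) over 12 libraries, 6 Fsh and 6 control, with Benjamini-Hochberg adjustment over 19317 genes. Each log2 fold change over the square root of its F statistic gave the SE. Correlations used log2 CPM with a prior count of 2. Alternatives used DESeq2 1.42.0, limma 3.58.1 and other settings. Permutation tests used Python 3.11.15. Scripts were tested on simulated data.

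The members and lists were chosen with earlier results of these data known. Named in full were members with an unadjusted p under 0.05 and the smallest p of each role, the 4 smallest p of the wider meiosis list, and the 8 genes most like the members' mean. Every pair of replicates in a group was further apart than counting noise (chi-square over its degrees of freedom 5.40 to 43.0).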

Additional observations from a re-analysis of the deposited data

Results flagged for a closer look

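Of 58 groups of 6 libraries checked for a value far from the rest, 2 were flagged, and chance flags about 1 in 20 groups. Both concern Fsh library 5. Its level of brip1, the helicase gene, was 30.4 CPM, far below the other 5 Fsh libraries, which held 46.8 to 54.0 CPM. Its summed leukocyte level was 721 CPM, far above the other 5 Fsh libraries at 213 to 358 CPM.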

How the results depend on the processing

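The absence of calls among the 20 members held under 19 of 22 alternatives. The exceptions were DESeq2 (1 called, with 1087 genes called in all, against 315), the omission of Fsh library 5 (3 called), and the omission of Fsh library 5 and control library 2 together, chosen after seeing the data (2 called, with 498 genes in all). Over the omission of single libraries the members called ranged from 0 to 3 and all genes called from 95 to 758. The total moved by over 1.5 times without Fsh library 1 (483), 2 (95), 3 (161), 4 (184), 5 (758) or 6 (139), and without control library 1 (169), 4 (149), 5 (112) or 6 (700). The members' median log2 fold change stayed between 0.07 and 0.28 except with the leukocyte covariate (−0.12). Other scalings gave 0.11 and 0.16. The directions of dmc1, msh4, msh5 and rnf212b held under all 22 alternatives. The median pairwise correlation was 0.65 with group means kept and 0.53 to 0.76 over single omissions.

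Libraries that share a replicate number did not deviate together in every case (r from 0.022 to 0.264, and 2 of 6 libraries matched their own number best). Such values cannot exclude a pairing. The submitters state none, so the replicate number was not taken as a pairing. With it as a replicate block 381 genes and 0 members were called. Members at few reads, such as tex11, could not be tested at this depth.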
